A study of Mus musculus with 6 samples.

Results

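Introns longer than 100 bp that can be left in the mature message were followed in hepatocytes of male C57BL/6J mice fed a high-fat diet (HFD, 60% fat) and of male C57BL/6J mice fed a low-fat diet (LFD, 10% fat). All of these mice had eaten chow with 13.5% fat up to an age of 8 weeks and then 1 of the diets for 12 weeks, and there were 3 libraries per diet. Splicing was described with MAJIQ, in which a local splicing variation (LSV) gathers all junctions and retained introns at 1 side of an exon. It gives each of them a PSI, the fraction of the LSV's reads that use it, as a posterior mean with a variance. An intron was taken when the same LSV with the same junctions was present on both diets, the LSV ended in a retained intron, and the intron was over 100 bp long. This gave 1747 introns in 1150 genes, among 68110 junction and intron entries of LSVs shared by the diets. Another 1828 introns of the shared LSVs were 100 bp or shorter, and 2 intron entries had no coordinates. PSI was pooled over the 3 libraries of a diet in the deposited tables, so no value below has a spread between animals. The SD given beside a PSI is the posterior SD, which covers reads in the pool only. No p-value was computed, and whether a difference exceeds the variation between mice could not be tested.

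Splicing removes introns between a donor site, which in most introns begins with GT, and an acceptor site, which ends in AG. An intron that stays in a messenger RNA often brings a stop codon into the reading frame, and such transcripts may be held in the nucleus or degraded by nonsense-mediated decay. Genes of splicing factors use this to limit their own protein. In hepatocytes, as in other cells, some segments that one transcript treats as an intron are part of a coding exon in another.

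The sequences below show these 2 kinds of segment, with the first and last bases of the segment (GT and AG in the usual intron) in capitals. They were read from GENCODE M21 transcripts (GRCm38, the assembly also called mm10) in which an exon runs through the segment, 5′ to 3′ on the gene's own strand. Apob, which encodes the main protein of the lipoproteins that liver secretes, has the segment with the largest rise on HFD (chr12:8015566-8015691, plus strand, 126 bp). It lies wholly inside the coding part of an annotated exon.
Apob: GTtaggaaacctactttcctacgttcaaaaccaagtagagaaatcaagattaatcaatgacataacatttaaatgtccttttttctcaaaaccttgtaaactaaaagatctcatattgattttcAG
Ifrd1, an interferon-related regulator of gene expression, and Gtf2a2, the small subunit of the general transcription factor TFIIA, have introns between coding exons that were higher on HFD. Neither holds a stop codon in the frame of the preceding exon. The Ifrd1 intron (chr12:40217243-40217377, minus strand, 135 bp) keeps the frame when it is read through, and the Gtf2a2 intron (chr9:70016924-70017072, plus strand, 149 bp) shifts it.
Ifrd1: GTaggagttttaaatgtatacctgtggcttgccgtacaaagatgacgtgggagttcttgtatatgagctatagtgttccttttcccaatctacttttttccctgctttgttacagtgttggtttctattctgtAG
Gtf2a2: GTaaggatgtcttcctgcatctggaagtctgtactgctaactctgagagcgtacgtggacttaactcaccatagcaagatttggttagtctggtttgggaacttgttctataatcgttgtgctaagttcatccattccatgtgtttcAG

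For other introns that differed between the diets, the 2 splice sites are enough to show how regular their ends are. Each donor below has 3 exon and 6 intron bases and each acceptor has 20 intron and 3 exon bases, with the intron's outermost 2 bases in capitals. The Nr1i3 intron (chr1:171217431-171217612, plus strand), the Selenbp2 intron (chr3:94697779-94698042, plus strand) and the Vps11 intron (chr9:44353999-44354102, minus strand) have GT and AG ends, while the Zfyve19 segment (chr2:119211767-119211905, plus strand) starts with CC.
Nr1i3 donor: ctgGTgagg
Nr1i3 acceptor: tgccaccttgcccttcccAGtct
Selenbp2 donor: aggGTacag
Selenbp2 acceptor: ctgttccttaccttctccAGgtc
Vps11 donor: cggGTgaga
Vps11 acceptor: gcttctcccctctgtcccAGgcc
Zfyve19 left end: tcaCCtatg
Zfyve19 acceptor: agctgccctcctccgcacAGgca

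Most of these introns were nearly always removed on both diets. The median PSI was 0.0238 on HFD and 0.0213 on LFD, close to the lowest value that occurs, 0.0125. Of the 1747 introns, 304 were at that lowest value on both diets, and 1161 had a mean PSI of the diets under 0.05. At the other end, 138 introns had a mean PSI of at least 0.5, and 22 were at the highest value, 0.988, on both diets. Many introns were tied at the top of this range, and the 5 named by rule, with ties in the order of chromosomes, were in Abcb11, Aldh4a1, Bsg, P4hb and RP24-74F2.12. Abcb11 is the bile salt export pump, Aldh4a1 a mitochondrial enzyme of proline breakdown, Bsg the cell-surface protein basigin, and P4hb a protein disulfide isomerase of the endoplasmic reticulum. In the first 4 of these, an exon of an annotated protein-coding transcript runs through the segment.

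The level of inclusion differed by what the annotation says of the segment. The 154 introns that a protein-coding exon runs through had a median mean PSI of 0.66. The 401 introns run through by an exon of a transcript annotated as retained_intron, and by no coding exon, had 0.0415, and the 1136 run through by no annotated exon had 0.0205. Both ends were an annotated intron's in 1288 introns, of which 1109 lay between coding exons, 42 in a 5′ untranslated region, 35 in a 3′ untranslated region and 102 in a transcript without a coding region. Their median mean PSI was 0.0229 between coding exons, 0.162 in 5′ and 0.153 in 3′ untranslated regions, and 0.0655 in noncoding transcripts. At 1 end 389 introns matched an annotated intron, and at neither end 70. With sequence at hand, 435 of 448 introns annotated at both ends began with GT and ended with AG, against 45 of 147 that matched at 1 end and 4 of 16 that matched at neither. Most segments without an annotated pair of ends were therefore not bounded by GT and AG where their sequence could be read.

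**Figure D1:**
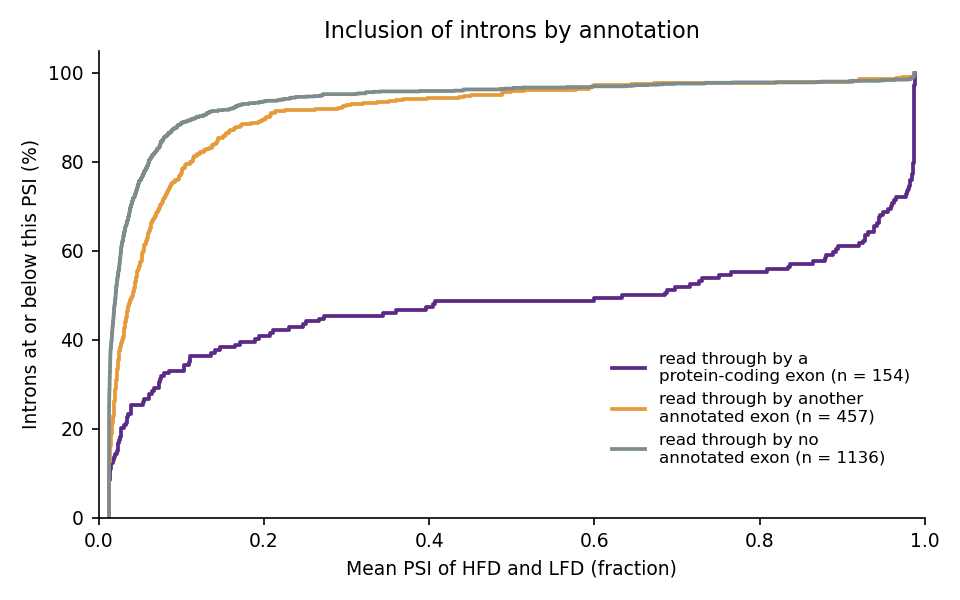
Cumulative share of introns (%, vertical) at or below a given mean PSI of the diets (fraction, horizontal). The curve of the 154 introns that a protein-coding exon runs through lies far to the right, with a median of 0.66, while the 1136 that no annotated exon of any kind runs through have a median of 0.0205.

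Sequence was available for 355 introns between coding exons, those that some annotated exon runs through. An in-frame stop codon was present in 297 of them (83.7%), 26 had no stop and kept the frame, and 32 had no stop and shifted it. Among those with a mean PSI under 0.05, 181 of 211 held a stop (85.8%), and among those with a mean PSI of at least 0.5, 9 of 21 did (42.9%). The donor sequence was searched for GTAAG or GTGAG, forms that pair well with U1 small nuclear RNA, at the first 5 intron bases on the gene's strand. One of them was present in 45.8% of all 448 introns annotated at both ends, in 49.4% of those with a mean PSI under 0.05 and in 23.3% of those with at least 0.5. The median share of pyrimidines in the 18 bases before the final 2 was 77.8% under 0.05 and 66.7% from 0.5. These introns are only those with a read-through transcript in the annotation, so the shares describe that subset.

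Length covered a narrow range in the deposited PSI tables. Retained introns over 100 bp that a second program listed, described below, had a median of 609 bp. Why the PSI tables hold so few long introns was not tested. The median was 137 bp, 1674 introns were at most 200 bp long, none lay between 187 and 207 bp, and the longest had 2368 bp. The 73 introns over 200 bp had a median mean PSI of 0.0823, against 0.0255 for those of 101 to 200 bp. At the limit itself, 3 introns of 101 bp (in Ech1, Srpr and Qdpr) and 3 introns of 100 bp (in Atp5a1, S100a10 and Tmem59), named as the most precise on each side, all had a PSI of 0.0125 on both diets.

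The diets were compared with a call rule: PSI had to differ by at least 0.2, and 0 had to lie outside the central 95% of the difference, taken as normal with the 2 posterior variances added. By this rule 13 introns differed, 7 higher and 6 lower on HFD, which is 0.744% of the 1747. The background over all 68110 entries was 0.417%, with 0.21% higher and 0.207% lower. Introns of at most 100 bp gave 15 of 1828, or 0.821%. With a limit of 0.1 in place of 0.2, 89 introns differed (5.09%), 57 higher and 32 lower, against a background of 2.87%, with 1.47% higher and 1.39% lower. The gap to the background was smaller at a mean PSI of 0.05 to 0.95. There, 17.3% of 513 introns passed the 0.1 limit, against 12.9% of 15173 entries. By the call rule the shares were 2.53% and 1.87%. Entries of the background were not merged as the introns were. Over all 1747 introns the median difference, HFD minus LFD, was 0, with quartiles of -0.00692 and 0.0155.

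Smaller differences leaned to the HFD side. PSI was higher on HFD by at least 0.05 in 157 introns and lower by at least 0.05 in 103, so that 60.4% of the 260 were higher (exact 95% binomial bounds 54.2% and 66.4%, which cover counting error only and treat introns as independent). The background was 5.42% higher and 5.27% lower over all entries, and 8.99% and 5.9% among the introns. Introns of at most 100 bp showed 153 higher and 94 lower. Introns at the bottom of the range were unevenly split between directions. Of the 57 rises past the 0.1 limit, 18 (31.6%) had a PSI under 0.02 on LFD. Of the 32 falls, 20 (62.5%) had one under 0.02 on HFD. Among all 1747 introns, 860 had a PSI under 0.02 on LFD and 816 had one under 0.02 on HFD. The pools also differed in precision. For the 188 introns with a PSI of 0.1 to 0.9 on both diets, the effective read number was 201.1 on HFD and 254.7 on LFD in the median, and the posterior SD was larger on HFD in 75.0% of them. The part of this in the counts above was not tested.

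**Figure D2:**
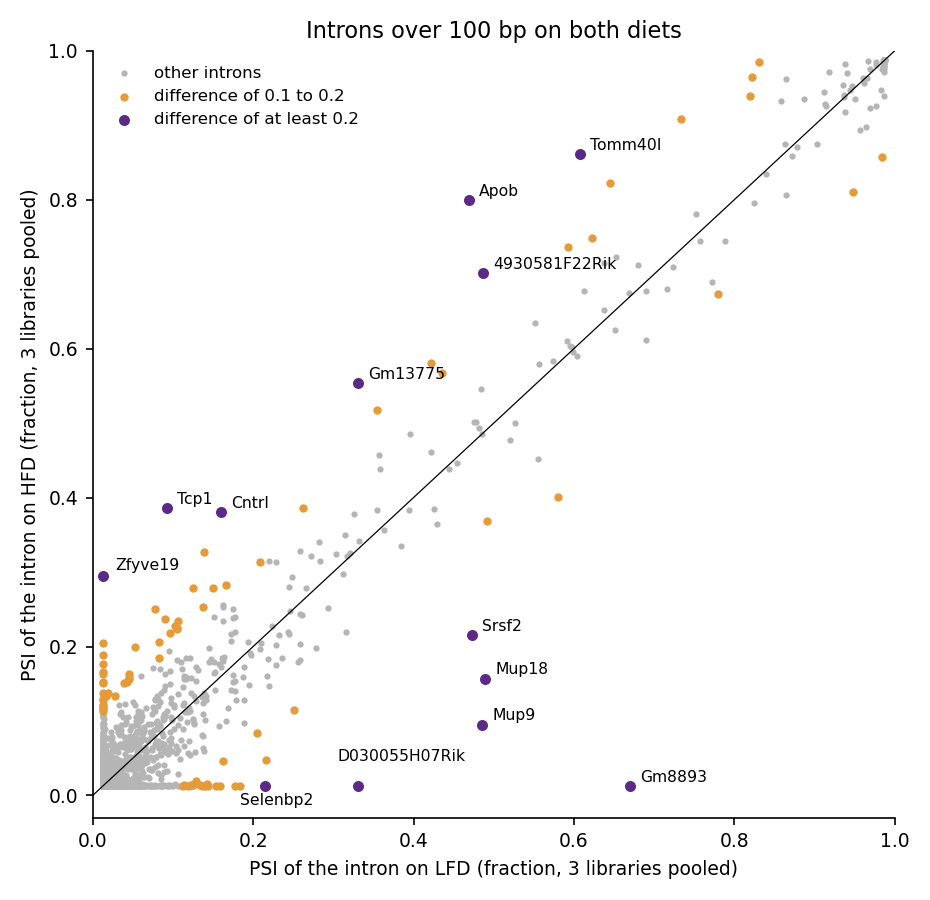
PSI of each of the 1747 introns on HFD (vertical) against LFD (horizontal), both as fractions of 3 pooled libraries. The 13 introns past the call rule are named and the diagonal marks equal PSI, and most introns sit near the lowest value in the lower left corner.

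Several results rest on an intron being listed by an LSV at each of its exons, and the text gives the mean of the 2. The source LSV starts at the exon before the intron and the target LSV ends at the exon after it. Among 1495 introns listed from both ends, the PSI of the 2 LSVs correlated with a Pearson r of 0.925 on HFD and 0.921 on LFD, and the differences between diets with 0.621. These are descriptions across introns that share libraries. The median gap between the 2 differences was 0.00834. Of 111 introns with a difference of at least 0.1 at either end, 102 had the same sign at both. In 4 introns, of Apob, Ccnl1, Srsf2 and Tcp1, the 2 differences were over 0.2 apart.

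**Figure D3:**
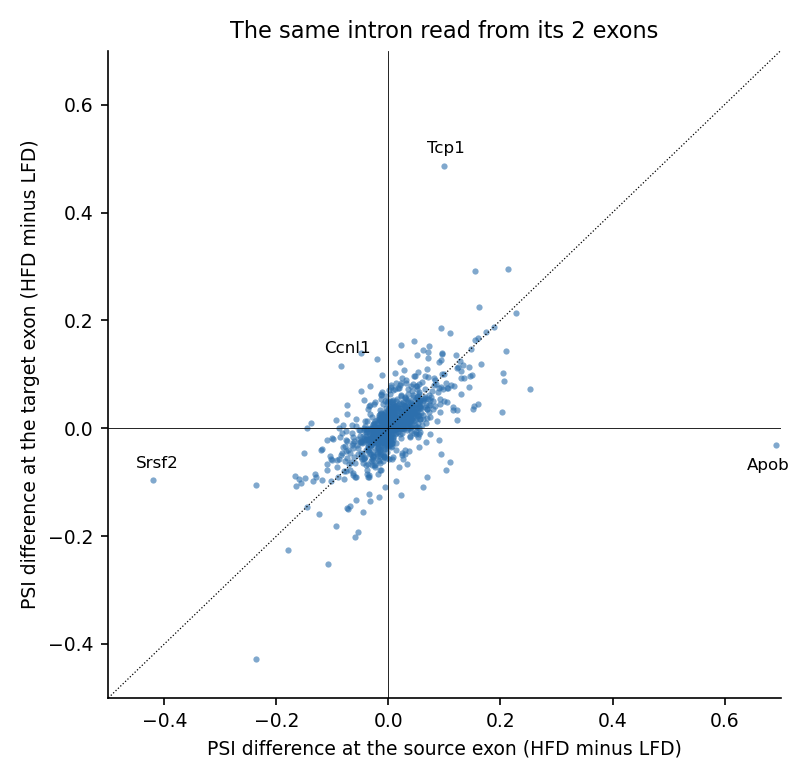
Difference in PSI (HFD minus LFD) of 1495 introns as read at the target exon (vertical) and at the source exon (horizontal), with a dotted line for equal values. Most points lie within 0.1 of the origin, and Apob, Ccnl1, Srsf2 and Tcp1 are named because their 2 differences are more than 0.2 apart.

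Among the introns that rose, Apob had the largest mean difference, 0.33. In the source LSV its PSI was 0.704 (SD 0.0402) on HFD and 0.0125 on LFD. In the target LSV it was 0.893 (SD 0.021) on HFD and 0.925 (SD 0.0162) on LFD, a difference of -0.0316. The rise was thus seen only from the upstream side, and since the segment printed above is inside a coding exon, a high PSI there stands for the uninterrupted exon. The segment has a length that is a multiple of 3.

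Tcp1 encodes a subunit of the chaperonin that folds actin and tubulin. Its 520 bp segment (chr17:12923694-12924213) had a mean PSI of 0.386 (SD 0.0383) on HFD and 0.0926 (SD 0.0136) on LFD, a difference of 0.293. The target LSV gave 0.5 on HFD and 0.0125 on LFD, and the source LSV gave 0.272 on HFD and 0.173 on LFD, so both ends were higher on HFD by very different amounts. An exon of Acat3, a gene on the other strand, overlaps the segment.

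In Zfyve19, which encodes a zinc finger protein that takes part in the control of cell abscission, PSI was 0.295 (SD 0.0566) on HFD and 0.0127 (SD 0.00224) on LFD. It was listed by the target LSV only, and its SD on HFD was above 0.05, as were both SDs of 4930581F22Rik, with 0.702 (SD 0.0513) on HFD and 0.487 (SD 0.0574) on LFD. Cntrl, the centrosomal protein centriolin, had a coding intron (chr2:35175373-35175537) with a PSI of 0.381 (SD 0.0448) on HFD and 0.16 (SD 0.033) on LFD. Its 2 LSVs gave differences of 0.227 and 0.214, and this was among the most even of the calls.

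Tomm40l encodes a protein similar to a channel subunit of the mitochondrial import machinery, and its largest difference was in the intron at chr1:171220424-171220546. PSI there was 0.861 (SD 0.0253) on HFD and 0.607 (SD 0.0326) on LFD, a difference of 0.254. All 3 of its introns were high on both diets and higher on HFD, and all lie opposite exons of Nr1i3 in the annotation. Libraries were stranded per the labels, but whether the counting made use of strand is not known here. For 44 introns listed on both strands the PSI of the strands differed by 0.000112 in the median and by at most 0.0287, so reads of the opposite genes cannot be told apart in such places.

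Nr1i3, the nuclear receptor CAR that controls drug metabolism in liver, itself came close to the call rule. Its intron printed above had a PSI of 0.205 (SD 0.0257) on HFD and 0.0125 on LFD, a difference of 0.193. The LSVs gave 0.174 and 0.236 on HFD, and both gave 0.0125 on LFD. An exon of Tomm40l overlaps this intron from the other strand.

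Among the introns that fell was one of Srsf2. This gene encodes a serine and arginine rich splicing factor, and it is known to regulate its own message by splicing in the 3′ untranslated region. The segment of 110 bp (chr11:116850746-116850855) had a mean PSI of 0.215 (SD 0.0315) on HFD and 0.473 (SD 0.0359) on LFD, a difference of -0.259. The source LSV gave 0.0125 on HFD and 0.433 on LFD. In the target LSV the values were closer, 0.417 (SD 0.0445) on HFD and 0.513 (SD 0.0332) on LFD.

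Selenbp2, a selenium-binding protein made in liver, had an intron of 264 bp with a PSI of 0.0125 on HFD and 0.215 (SD 0.0259) on LFD. Both of its LSVs were at the lowest value on HFD and at 0.191 and 0.238 on LFD. In D030055H07Rik a segment of 1922 bp had 0.0125 on HFD and 0.331 (SD 0.0356) on LFD, in 1 LSV. That gene is transcribed opposite Glyctk, whose exons overlap the segment.

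Another 4 introns past the rule belong to multi-copy families or predicted genes, where reads may be shared between copies, and are uncertain for that reason. Mup9 and Mup18 encode major urinary proteins, which liver secretes in male mice. The Mup9 intron had a PSI of 0.0951 (SD 0.0184) on HFD and 0.485 (SD 0.0439) on LFD. For Mup18 the values were 0.157 (SD 0.0213) on HFD and 0.489 (SD 0.0377) on LFD. Gm8893 had 0.013 (SD 0.00359) on HFD and 0.67 (SD 0.0449) on LFD, the largest difference of all at -0.657, in 1 LSV. Gm13775 was higher, with 0.554 (SD 0.0383) on HFD and 0.331 (SD 0.0361) on LFD. Without the multi-copy families, 9 introns remained past the rule, 6 of them higher.

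**Figure D4:**
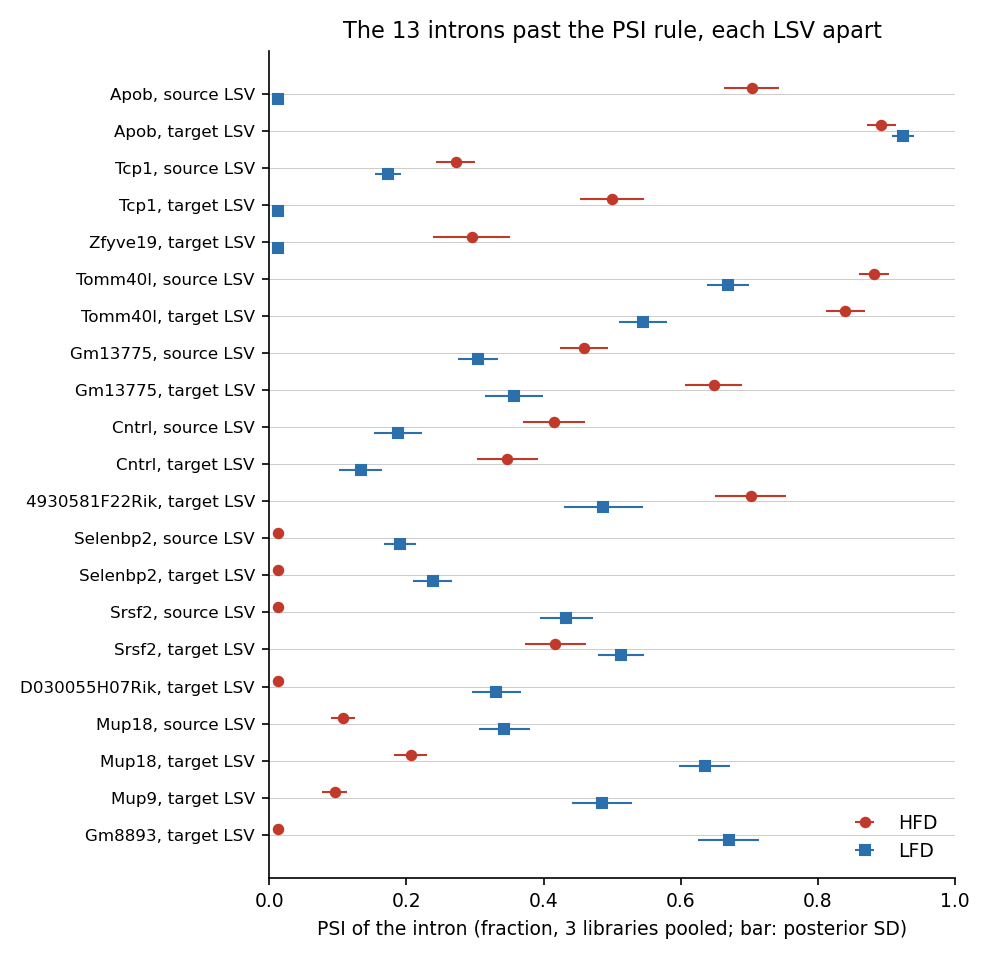
PSI (fraction, horizontal) of the 13 introns past the call rule, with a row for each LSV that lists the intron, HFD as circles and LFD as squares, and bars of 1 posterior SD. The diets are well apart in most rows, but the target LSV of Apob has nearly the same PSI on both diets, and 3 genes (Selenbp2, D030055H07Rik and Gm8893) have HFD values at the bottom of the range in every row.

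In 7 genes, at least 3 introns over 100 bp were higher on HFD by 0.05 or more, and no gene had 3 or more lower by that amount. There were 128 genes with at least 3 introns over 100 bp. With 2 or more introns in place of 3, 17 genes had them higher and 8 had them lower, among 339 genes with at least 2. Over single introns, 8.99% were higher and 5.9% lower by that amount. Tcp1 had all 4 of its listed segments higher, by 0.0874 to 0.293, and Tomm40l all 3 of its introns, by 0.143 to 0.254. Of the Tcp1 segments, only chr17:12923411-12923529 matched an annotated intron at both ends. Those at chr17:12919559-12919672, which starts with AC, and chr17:12922308-12922486 matched at neither end. The second program described below listed a retained intron of 366 bp (chr17:12919448-12919813) that spans the first of these. The segment at chr17:12922308-12922486 may also be part of a longer intron. In Vps16, a subunit of the complexes that tether vesicles to endosomes and lysosomes, all 3 were higher, by 0.0503 to 0.164. The largest of these was at chr2:130438906-130439045, with 0.177 (SD 0.0434) on HFD and 0.0128 (SD 0.0029) on LFD. The next Vps16 intron had 0.0955 (SD 0.035) on HFD and 0.0402 (SD 0.019) on LFD. The last had 0.105 (SD 0.0296) on HFD and 0.0543 (SD 0.0181) on LFD. Neither of these smaller differences passed the width limit of the call rule, so Vps16 is among the 7 genes by size only.

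Sra1, which produces the steroid receptor RNA activator, had 4 of 6 introns higher by 0.05 or more. They lay between 0.0892 and 0.253 on HFD and between 0.0152 and 0.137 on LFD, and the remaining pair differed by 0.0197 and 0.0353. Mfsd2a, a transporter of lysophosphatidylcholine that fasting induces in liver, had 3 of 4 introns higher by that much, and the remaining one was higher by 0.0479. Its largest difference was 0.0999, with 0.161 (SD 0.0206) on HFD and 0.0606 (SD 0.0126) on LFD. For Grn, which encodes the lysosomal protein progranulin, 3 of 5 listed segments were higher, by 0.0526 to 0.082, and the other 2 differed by 0.000634 and 0.012. Among the higher ones, chr11:102434594-102434702 and chr11:102434892-102435058 matched an annotated intron at 1 end only and start with AG and TG.

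Tat encodes tyrosine aminotransferase, a hepatocyte enzyme induced by glucocorticoids and fasting, and it had 8 introns, 6 of them over 400 bp. PSI was higher on HFD by at least 0.05 in 3 of them. The intron at chr8:109996220-109996793 had 0.218 (SD 0.0336) on HFD and 0.0968 (SD 0.0145) on LFD, and those next to it differed less, by 0.0224 and 0.0736. The first and last of the 8 differed by 0.0058 and -0.0151. Fasn, the fatty acid synthase gene, had the most introns, 14, and none differed by 0.05 (range -0.0198 to 0.00409). Hyou1, a chaperone of the endoplasmic reticulum, and the nucleoside transporter gene Slc29a1 had 8 introns each, again none with such a difference. Chkb had 9, of which 1 was higher by at least 0.05, by 0.162. C4a, a complement gene with near-identical copies and therefore uncertain, had 11, of which 2 were lower, the larger by -0.121.

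**Figure D5:**
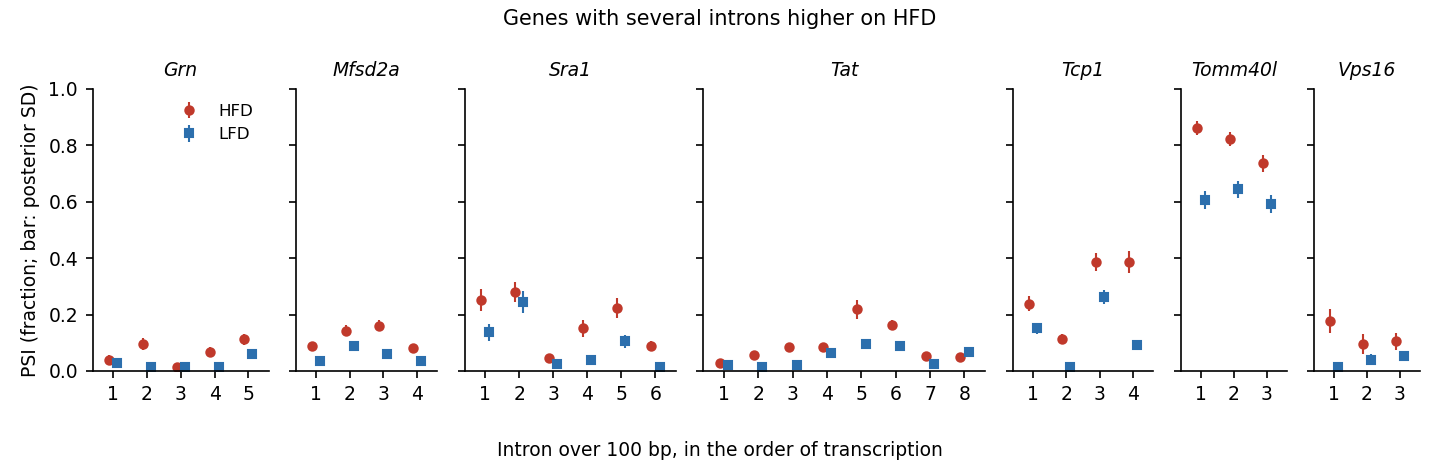
PSI (fraction, vertical) of each intron over 100 bp in the 7 genes with 3 or more introns higher on HFD, in the order of transcription (horizontal), with HFD as circles, LFD as squares and bars of 1 posterior SD. Tomm40l introns lie above 0.5 on both diets, the introns of the other genes below 0.4, and HFD values lie above LFD values at nearly every intron.

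Further introns differed by 0.1 to 0.2 and past the width limit. Among genes of metabolism, Slc19a2, a thiamine transporter, had a PSI of 0.327 (SD 0.0335) on HFD and 0.139 (SD 0.0188) on LFD, with a difference of 0.188 in both LSVs. Sds, a serine dehydratase that feeds amino acid carbon into gluconeogenesis, had an intron of 554 bp with 0.189 (SD 0.0249) on HFD and 0.0125 on LFD. The predicted gene Gm15690 on the other strand listed nearly the same segment, with 0.152 on HFD and 0.0125 on LFD, and these overlapping segments cannot be told apart by their reads if strand was not used. Chkb, a choline kinase, had 0.517 (SD 0.048) on HFD and 0.354 (SD 0.0334) on LFD. Its source LSV gave a difference of 0.252 and its target LSV 0.0728.

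The 2 introns of Gtf2a2 were both higher. The one printed above had 0.581 (SD 0.0328) on HFD and 0.422 (SD 0.0337) on LFD, with differences of 0.154 and 0.163 in its LSVs, and the other had 0.138 on HFD and 0.0189 on LFD. The printed Ifrd1 intron had 0.163 (SD 0.0263) on HFD and 0.045 (SD 0.0172) on LFD. Krt8, a keratin of the hepatocyte's cytoskeleton, had an intron of 526 bp with 0.122 (SD 0.0175) on HFD and 0.0125 on LFD.

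Falls of this size included Fam120b, a coactivator of nuclear receptors, with 0.401 (SD 0.0353) on HFD and 0.58 (SD 0.0322) on LFD. Cuta had 0.0126 on HFD and 0.184 (SD 0.0276) on LFD. In C8a, the alpha chain of complement component 8, a segment of 1440 bp was included at 0.811 (SD 0.0258) on HFD and 0.948 (SD 0.00893) on LFD. A protein-coding exon runs through that segment, as it does in Apob.

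Gene lists drawn up for liver on a high-fat diet were counted at the 0.1 limit, against 5.09% of all 1747 introns and 2.87% of all entries. Among 51 introns of 35 genes for splicing machinery and its regulators, 2 passed (3.92%), Srsf2 lower and Clk2 higher. Clk2, a kinase of splicing factors, had a PSI of 0.279 (SD 0.0543) on HFD and 0.125 (SD 0.0404) on LFD. By size alone, 8 of the 51 were higher by at least 0.05 and 1 was lower, with a list median of 0.00453 against 0 for all introns. At that size 8.99% of all 1747 introns were higher and 5.9% lower, against 5.42% and 5.27% of all entries. The splicing introns past this size include Wtap, Tardbp, Hnrnpa2b1, Hnrnpa1, Rbm25, Srsf11 and Ccnl1. Of those named here, only Hnrnpa2b1 and Hnrnpa1 also passed the width limit of the call rule. Hnrnpa1 had 0.077 (SD 0.0177) on HFD and 0.0171 (SD 0.00912) on LFD. Srsf11 had 0.378 (SD 0.0406) on HFD and 0.326 (SD 0.0379) on LFD. Tardbp, the RNA-binding protein TDP-43, had 0.723 (SD 0.029) on HFD and 0.652 (SD 0.0245) on LFD.

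Genes known for regulated intron retention had 17 introns, of which 2 were higher by 0.05, where 8.99% of all introns were, none was lower and none passed the 0.1 limit. One was in Mat2a, whose enzyme makes S-adenosylmethionine and whose retained intron responds to that product in other cells, with 0.079 (SD 0.0187) on HFD and 0.0242 (SD 0.0125) on LFD. The other was in Ccnl1, a cyclin that regulates splicing, with 0.239 (SD 0.0241) on HFD and 0.178 (SD 0.0204) on LFD. The Ccnl1 difference did not pass the width limit of the call rule.

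Lipid metabolism held 55 introns in 28 genes, with 4 past the 0.1 limit (7.27%) and a median difference of 0. Apob, Lpin2 and Acaa1b were higher and Fads3 lower. Lpin2, a phosphatidate phosphatase of triglyceride synthesis, had 0.228 (SD 0.0237) on HFD and 0.103 (SD 0.0145) on LFD. Acaa1b, a peroxisomal thiolase, had 0.314 (SD 0.0397) on HFD and 0.209 (SD 0.0308) on LFD. It was listed by 1 LSV and falls under the multi-copy families, so it is uncertain. For Fads3, a fatty acid desaturase, PSI was 0.858 (SD 0.045) on HFD and 0.984 (SD 0.00912) on LFD. Srebf1, the transcription factor of lipid synthesis, had 0.0125 on HFD and 0.0698 (SD 0.0142) on LFD, a difference under 0.1.

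None of the 22 introns of cholesterol and bile acid genes passed the limit. Of 34 introns of insulin and glucose genes 1 did, in Crtc2, a coactivator of gluconeogenesis, with 0.0135 on HFD and 0.125 (SD 0.0315) on LFD. Of 27 introns of mitochondrial energy metabolism 1 did, in Pdk4, the kinase that restrains pyruvate oxidation, with 0.116 (SD 0.0415) on HFD and 0.013 (SD 0.00349) on LFD. Of 29 introns of xenobiotic and nuclear receptor genes, the Nr1i3 intron alone passed. Plasma and acute phase proteins had 85 introns and 2 calls (2.35%), C8a lower and Proc, the anticoagulant protein C, higher.

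Interferon and inflammation genes were the list with the largest share past the 0.1 limit, 3 of 21 introns (14.3%), all lower on HFD. By size, 6 were lower by at least 0.05 and 2 higher, with a list median of -0.0125, where 8.99% of all introns were higher and 5.9% lower at that size. The introns that fell were in the chemokine genes Cxcl1 and Cxcl10 and in Stat2, the interferon signalling factor. Stat2 had 0.013 (SD 0.00349) on HFD and 0.14 (SD 0.0269) on LFD, and Cxcl10 had 0.0137 on HFD and 0.122 (SD 0.0292) on LFD. The Cxcl10 segment matched an annotated intron at 1 end only and starts with TG. The Cxcl1 intron of 718 bp had 0.0125 on HFD and 0.154 (SD 0.0235) on LFD, while its intron of 115 bp was higher on HFD, with 0.256 (SD 0.0258) on HFD and 0.163 (SD 0.0206) on LFD. All 3 calls were near the lowest value on HFD, and the HFD pool was the less precise one, as given above. PSI is a ratio within a gene, and in these bulk samples fewer cells of a type and less RNA per cell cannot be told apart. None of the introns lay in the marker genes listed for macrophages, endothelial cells, stellate cells or bile duct cells, of which 4 of 16, 5 of 14, 2 of 12 and 1 of 8 had an LSV on both diets. All 12 hepatocyte markers had one.

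Stress and unfolded protein response genes had 37 introns and 3 calls (8.11%), Ifrd1 higher and Trp53 and Syvn1 lower. Trp53, the tumour suppressor p53, had 0.013 (SD 0.00376) on HFD and 0.144 (SD 0.0294) on LFD. Syvn1, a ubiquitin ligase that clears misfolded proteins from the endoplasmic reticulum, had 0.0125 on HFD and 0.119 (SD 0.0193) on LFD. The Trp53 and Syvn1 segments matched an annotated intron at 1 end only, and that of Syvn1 starts with GA. Autophagy and lysosome genes had 22 introns and 2 calls (9.09%), with Vps16 higher and Vps11, a subunit of the same tethering complexes, lower. The Vps11 intron printed above had 0.0132 (SD 0.00455) on HFD and 0.159 (SD 0.0315) on LFD. Hepatocyte markers had 19 introns in 4 genes and 2 calls (10.5%), the Apob and Tat introns described above.

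The authors also deposited a table of differences (dPSI) from a separate and stricter MAJIQ run, which lists LSVs judged to differ. It holds 46 introns over 100 bp, and 21 of them are among the 1747. In terms of LSVs, 22 of the 3379 that list these introns are in it (0.651%), against 97 of all 26910 shared LSVs (0.36%). All 22 entries had the same sign as in the PSI tables. Both runs used the same libraries and the stricter one lists only LSVs judged to differ, so this is not independent evidence. The authors' deposited table gives the Apob source LSV a dPSI of 0.712, the Tcp1 target LSV 0.491 and the Srsf2 source LSV -0.418, and it lists none of these introns from the other end. It gives D030055H07Rik -0.32, the Tomm40l introns 0.216 to 0.297, Zfyve19 0.277, Fam120b -0.255, Chkb 0.247 and Cuta -0.234. For another Chkb intron (chr15:89429158-89429376), which is not among the 1747, the authors' deposited table gives -0.259. For 4930581F22Rik the authors' deposited table gives a dPSI of only 0.0702, where the PSI tables differ by 0.215. The PSI values in the authors' deposited table for this LSV, 0.702 on HFD and 0.489 on LFD, are nearly those of the PSI tables. For Mup9 the authors' deposited table gives a dPSI of -0.233, where the PSI tables differ by -0.39. The introns of Selenbp2, Gm8893, Mup18 and Gm13775 that passed the call rule are not listed in the authors' deposited table. The authors' deposited table holds another 25 introns that are not in the shared LSVs with these coordinates, and 22 of those are over 200 bp. Among them is a Stat2 intron (chr10:128281771-128282101) with a dPSI of 0.128 in the authors' deposited table, opposite in direction to the Stat2 intron above.

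A second program, JUM, listed 118 retained introns with a p-value under 0.05 in the authors' deposited table, 93 of them over 100 bp and 87 of these with a PSI higher on HFD. The title line of that table names livers on NC, in the labels normal chow, as the comparison, while its change column is headed as HFD minus LFD. The column heading was followed here, so the directions and sizes of JUM changes below hold only if the heading is right. The median length of these 93 introns was 609 bp. After the authors' adjustment, 43 of the 118 (36.4%) were under 0.05, and every one of the 43 was over 200 bp long. Only 8 of the JUM introns are among the 1747 (coordinates within 1 bp), and none of the 8 had an adjusted p-value under 0.05. Both sources gave a higher value on HFD for 5 of them. Krt8 had a change of 0.145 in the authors' deposited JUM table, with an adjusted p-value of 0.0863 there. For Slc25a47, a mitochondrial carrier of liver, 2 introns were listed with 0.136 and 0.123 in the authors' deposited table, and their PSI differences were 0.0518 and 0.037. A shorter intron of Sds, other than the one above, had 0.253 in the authors' deposited table and a PSI of 0.35 on HFD and 0.315 on LFD. The direction differed for Stub1, a co-chaperone and ubiquitin ligase, with 0.0557 in the authors' deposited table but a PSI of 0.0125 on HFD and 0.0848 on LFD. The matched introns of Apoc3 and Apob were at 0.0125 on both diets in the PSI tables. JUM also listed a 609 bp intron of Apob (chr12:8015082-8015690) that is not among the 1747. It spans the Apob segment printed above, with JUM's coordinates 1 bp lower. Its change in the authors' deposited table was -0.00182, with an adjusted p-value of 0.119 there. Longer JUM introns also span the Slc19a2 segment, the Lpin2 segment and the Tcp1 segment at chr17:12919559-12919672 given above. Their changes were 0.207, 0.192 and 0.161 in the authors' deposited table, with adjusted p-values of 0.025, 0.064 and 0.276 there. The Slc19a2 segment matched an annotated intron at 1 end only, and those of Lpin2 and Tcp1 at neither. Of the introns followed here 1674 were at most 200 bp long, while 87 of the 93 JUM introns over 100 bp were longer than that.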

How the data were processed

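RNA of hepatocytes was sequenced from stranded mRNA libraries as paired ends, per the labels' protocols, and per the submitters' processing notes FastQC, STAR and mm10 were used. Versions and further upstream settings were not found in these sources. The deposited MAJIQ tables hold PSI and its variance as fractions, 1 pooled value per diet, per the file headers, so depth and spread per library are unknown. The deposited dPSI and JUM tables hold the authors' own differences and p-values. Columns of samples that could not be mapped numbered 0.

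Intron entries with the same coordinates were merged on either strand by the mean of PSI and variance over their LSVs, with pandas 2.3.3 in Python 3.11.15. Annotation and sequences came from GENCODE M21 (GRCm38), with no genome used. The effective read number is PSI × (1 − PSI) / variance − 1. The call rule was tested on simulated PSI pairs. Bounds of shares are exact binomial (95%). Multi-copy families were taken from a list of symbol patterns.

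Named introns were, outside multi-copy families, the 12 largest rises and falls past the call rule with posterior SDs under 0.05, the 5 with the highest PSI, JUM matches past the adjusted p-value, the 10 largest in the dPSI table, genes with 3 or more introns moving 1 way, list members past the rule, and 3 introns on each side of 100 bp. Others were chosen after their values were seen: Gm8893, Mup9, Mup18, Gm13775, 4930581F22Rik and all introns given at the 0.1 limit or below. The introns and lists were chosen with earlier results of these data known. Alternatives tried were other limits of difference and width, other ways to merge LSVs, other length limits and filters, and other matches to the dPSI and JUM tables.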

Additional observations from a re-analysis of the deposited data

How the results depend on the processing

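No paired analysis was possible because each diet has only 1 pooled value per intron, and for the same reason no library could be left out. Of 53 values under 17 alternative settings, 41 stayed within their limits, 12 moved and none reversed. The count of 13 introns past the rule, 7 of them higher on HFD, became 89 with 57 higher at a difference of 0.1, 4 with 1 higher among introns over 200 bp, and 4 with 2 higher among introns annotated at both ends, a setting chosen after seeing the data. With the more precise LSV of each intron alone, 10 passed and 4 of these were higher on HFD. The limit of 0.1 is a wider rule and the subsets hold fewer introns, while for the setting with 1 LSV per intron the cause was not tested. The share of differing introns that were higher on HFD, 60.4%, was 57.9% (128 of 221) with the more precise LSV alone. Among introns over 200 bp it was 66.7% (14 of 21). Of the 21 introns in the dPSI table, 2 were over 200 bp. Of the 8 JUM matches, 3 were over 200 bp, 0 had the same coordinates at both ends, since JUM's lie 1 bp lower, and 0 had an adjusted p-value under 0.05. The posterior SD of a difference, 0.0281 in the median for introns with a mean PSI of at least 0.05, limits what can be seen, and so does the lowest PSI of 0.0125.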
